A study of Mus musculus with 3 samples.

Results

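The genes described here are Socs1, Socs3 and Cish, which encode inhibitors of cytokine receptor signalling, and Stat3, which encodes a transcription factor that such receptors activate. They were taken by gene symbol and are 4 of the 20586 genes counted, in every library and every cluster that the deposited cell table gives. Mouse thalamus was taken 4 hours after intracerebroventricular injection, and its cells positive for CD45, a surface protein that microglia share with all leukocytes, were sorted and sequenced with a 10x droplet method that counts unique molecular identifiers (UMIs). The library called WT+IL33 came from mice heterozygous for Cx3cr1-creER that received the IL-1 family cytokine IL-33. The library called cKO+IL33 came from mice with the same heterozygous Cx3cr1-creER and homozygous ST2 Flox alleles that also received IL-33, where ST2 is the chain that binds IL-33 and is the product of Il1rl1. The library called WT+Vehicle came from Cx3cr1-creER heterozygotes that received vehicle.

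All 3 groups therefore carried the inducible recombinase, whose Cx3cr1 promoter is active in microglia and in related macrophages and monocytes. The age of the mice, their number per library and the schedule that induced the recombinase are not stated here. There was 1 library per group. Each difference between libraries therefore has no replicate check, no test was made, and the intervals given are exact 95% intervals that cover counting error only. The 3 comparisons share libraries with one another, so they are not independent.

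When a cytokine such as IL-6, IL-10 or an interferon binds its receptor, Janus kinases on the receptor tails phosphorylate STAT proteins, which move to the nucleus and switch on target genes. Genes of the SOCS family are among those targets, and their proteins act back on the receptor. SOCS1 and SOCS3 bind Janus kinases or receptor tails and block the kinase, CISH competes with STAT5 at receptor tails, and the shared SOCS box recruits a ubiquitin ligase. In microglia and other macrophages SOCS3 is best known for restraining gp130 receptors, SOCS1 for restraining interferon receptors, and STAT3 for carrying IL-6 and IL-10 signals.

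The start regions of the SOCS genes are shown because they carry the sequence patterns through which STAT and interferon-activated factors are known to act. Sequences come from the RefSeq promoter table of GRCm38.p6, in which all 4 genes were matched, and each reads 5′ to 3′ on the strand of its gene. Socs1 is shown for the 250 bases before its start, at chr16:10785537-10785786 on the minus strand, with 2 overlapping matches to GAAANNGAAA, the core of the interferon-stimulated response element, in capitals. Socs3 is shown for the 250 bases before its start, at chr11:117969367-117969616 on the minus strand, with the match to TTCNNNGAA, the STAT palindrome, in capitals. Cish is shown for 30 bases around its start, at chr9:107296654-107296683 on the plus strand, with 2 matches to the STAT palindrome in capitals.
Socs1: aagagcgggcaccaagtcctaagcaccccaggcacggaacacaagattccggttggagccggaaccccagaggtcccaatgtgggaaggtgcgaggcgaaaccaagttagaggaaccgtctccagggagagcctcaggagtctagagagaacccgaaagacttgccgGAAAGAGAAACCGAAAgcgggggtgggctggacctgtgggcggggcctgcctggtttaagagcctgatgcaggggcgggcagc
Socs3: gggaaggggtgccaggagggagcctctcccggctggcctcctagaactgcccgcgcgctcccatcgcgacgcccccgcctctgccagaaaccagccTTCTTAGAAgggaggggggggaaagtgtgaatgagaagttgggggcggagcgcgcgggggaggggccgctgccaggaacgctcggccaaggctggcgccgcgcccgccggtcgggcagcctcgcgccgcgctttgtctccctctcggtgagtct
Cish: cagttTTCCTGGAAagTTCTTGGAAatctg

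Both strands of 300 bases per gene (250 before and 50 from the start) were searched for 4 patterns. The first bases of the 2 Socs1 matches to GAAANNGAAA lay 83 and 77 bases before the start, and this pattern was present in 3.44% of 32851 promoters. The Socs3 match to TTCNNNGAA ran from base -154 to base -146 relative to the start. The Cish matches to it ran over bases 1 to 9 and 12 to 20 counted from the start. At least 1 match to TTCNNNGAA was present in 8.30% of promoters and 2 or more in 0.457%. GGGNNNNNCC, which spans the half-sites of a kappaB element, was found 3 times for Socs1, 1 time each for Socs3 and Cish, and in 50.8% of all promoters. TGANTCA, the AP-1 pattern, was found for none of the 4 genes and in 7.81% of promoters, and the Stat3 window held no match to any of the 4 patterns. These matches describe letters in a window. Binding was not measured.

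In the GENCODE annotation of GRCm38, Socs1 lies on chromosome 16 from 10782240 to 10785536 and Socs3 on chromosome 11 from 117966079 to 117970047, both on the minus strand and both without an overlapping gene. A part of the printed Socs3 window is also an exon of a Socs3 processed transcript in that annotation. Cish lies on chromosome 9 from 107296026 to 107302784 on the plus strand and overlaps Gm17040 and Gm17041 on the other strand. Stat3 lies on chromosome 11 from 100885098 to 100939540 on the minus strand and overlaps Stat5a on the other strand. Whether the authors' counting used strand is not stated in the sources, so reads of Cish and Stat3 may include some of those overlapping genes.

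The libraries held 2202, 2687 and 2709 cells in WT+IL33, cKO+IL33 and WT+Vehicle, in that order, with 12127214, 17480958 and 18269042 UMIs. The median cell had 3951, 5119 and 5544 UMIs in the same order, so shares of cells are also given after each cell was thinned to 3000 UMIs. At least 3 of 8 microglial markers were present in 99.9% of the 7598 cells, and 2 barcode sequences occurred in more than 1 library. Each level is in CPM, which scales the UMI sum of a gene to the same total in every library. Marker lists of neutrophils, T cells, NK cells and mast cells each summed to under 1 CPM in every library. Other lists were higher. In WT+IL33, cKO+IL33 and WT+Vehicle, B cell markers summed to 291, 246 and 266 CPM, mostly Cd79b and Ighm. Astrocyte markers summed to 238, 269 and 142 CPM in the same order, mostly Slc1a3, and oligodendrocyte lineage markers to 36.3, 38.0 and 33.8 CPM. Markers of border-associated macrophages summed to 14.3, 93.3 and 78.8 CPM and those of monocytes to 13.5, 32.8 and 57.0 CPM in WT+IL33, cKO+IL33 and WT+Vehicle. Il1rl1, the gene targeted by the floxed alleles, stood at 5.77 CPM in WT+IL33, 12.8 CPM in cKO+IL33 and 11.6 CPM in WT+Vehicle. The deleted part of the gene is not stated in the sources, and counts at the end of a transcript do not check a deletion elsewhere in it. Of 6 dendritic cell markers, Clec9a and Cd209a were at 0 in all 3 libraries, and the list summed to 286 CPM in WT+IL33, 6.46 CPM in cKO+IL33 and 4.82 CPM in WT+Vehicle, most of it Ccr7 (273 CPM in WT+IL33). The part of these genes and that of the macrophage and monocyte lists in the differences between libraries was not tested. The deposited sex call also moved with the groups: 1107 cells of WT+IL33 were called female and 1095 male, against 2648 and 39 in cKO+IL33 and 8 and 2701 in WT+Vehicle. No cell type known to lack the 4 genes was found among these cells, so no background share from free RNA could be given.

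Socs3 was the SOCS gene with the largest difference between the libraries. It gave 3851 UMIs in WT+IL33, 591 in cKO+IL33 and 293 in WT+Vehicle, summed over all cells of each library. Its level was 318 CPM (308 to 328) in WT+IL33, 33.8 CPM (31.1 to 36.6) in cKO+IL33 and 16.0 CPM (14.3 to 17.98) in WT+Vehicle. WT+IL33 was thus far above both other libraries, cKO+IL33 lay between, and none of the 3 intervals overlapped. The level in WT+IL33 was 19.8-fold that of WT+Vehicle (17.6 to 22.4), a log2 ratio of 4.31. The level in cKO+IL33 was 9.39-fold lower than in WT+IL33 (8.61 to 10.3), and it was 2.11-fold that of WT+Vehicle (1.83 to 2.43).

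A gene is called measured where it reached 10 CPM in at least 1 library of a comparison, and a ratio of at least 2 in either direction is counted. Socs3 and Stat3 were measured in all 3 comparisons, Socs1 in the 2 that involve WT+IL33, and Cish in none. Among measured genes, Socs3 ranked 91 from the highest of 8814 ratios of WT+IL33 to WT+Vehicle, where 11.7% of genes were at least 2-fold higher and 10.4% at least 2-fold lower. In cKO+IL33 against WT+IL33 it ranked 8718 of 8853, where 9.85% of genes were at least 2-fold lower and 10.9% at least 2-fold higher. In cKO+IL33 against WT+Vehicle it ranked 30 of 8495. In that comparison 0.447% of measured genes (38) were at least 2-fold higher and 0.483% (41) at least 2-fold lower, so few measured genes there reached a ratio like that of Socs3.

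**Figure D1:**
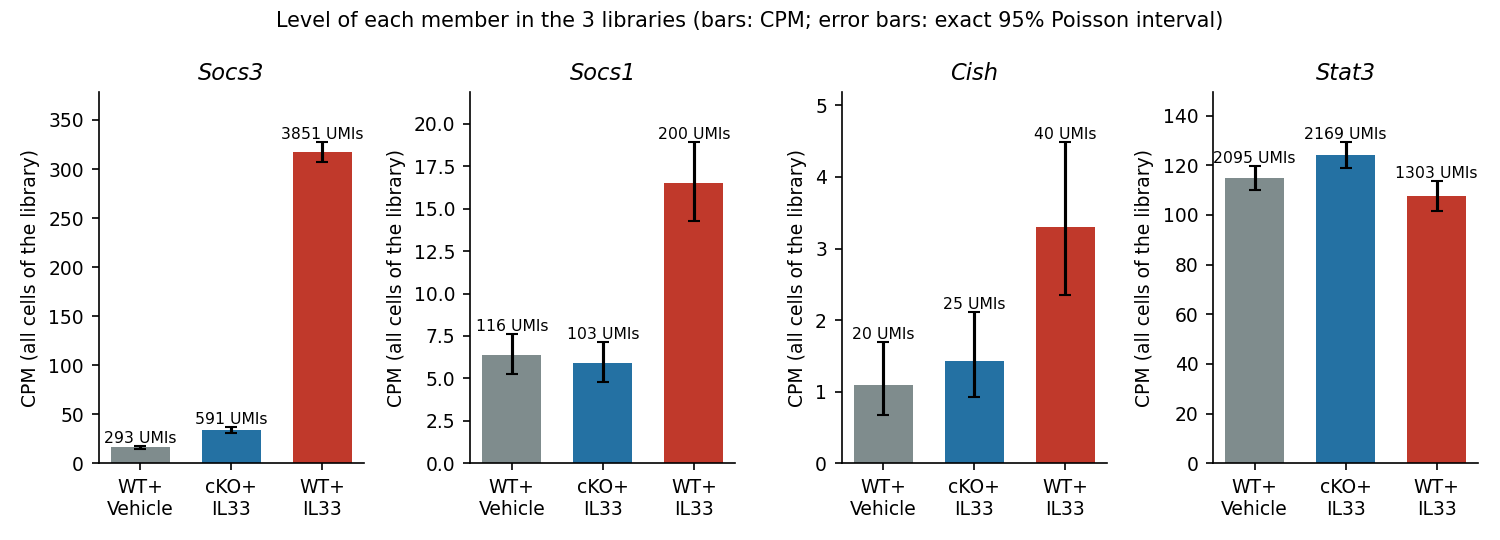
Level of Socs3, Socs1, Cish and Stat3 in each library (x axis), as CPM over all cells (y axis, from 0, with its own scale per gene); bars are CPM, error bars the exact 95% Poisson interval, and the UMIs behind each bar are printed above it. Socs3 reached 318 CPM in WT+IL33 against 16.0 CPM in WT+Vehicle, whereas Stat3 lay between 107 and 124 CPM in all 3 libraries.

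The Socs3 difference was present both in how many cells had a UMI and in how many UMIs those cells held. A Socs3 UMI was present in 56.4% of WT+IL33 cells (54.3 to 58.4), 16.4% of cKO+IL33 cells (15.1 to 17.9), while in WT+Vehicle it was 9.56% (8.48 to 10.7). After thinning to 3000 UMIs the shares were 47.4%, 8.46% and 4.90% in the same order. Cells with any Socs3 UMI held on average 3.103 in WT+IL33, 1.34 in cKO+IL33 and 1.13 in WT+Vehicle. Cells with 5 or more numbered 263 in WT+IL33, 5 in cKO+IL33 and 1 in WT+Vehicle, and the highest count in a cell was 24, 9 and 5. In WT+IL33, 305 cells were called female but held Y-linked UMIs, with a median of 10780 UMIs per cell. They included 95 of those 263 cells and the cell with 24. Socs3 stood at 321 CPM in these 305 cells. The 10 cells with the most Socs3 held 4.18% of its UMIs in WT+IL33, 8.97% in cKO+IL33 and 8.87% in WT+Vehicle, so no small set of cells made up the sum in any of the 3 libraries.

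**Figure D2:**
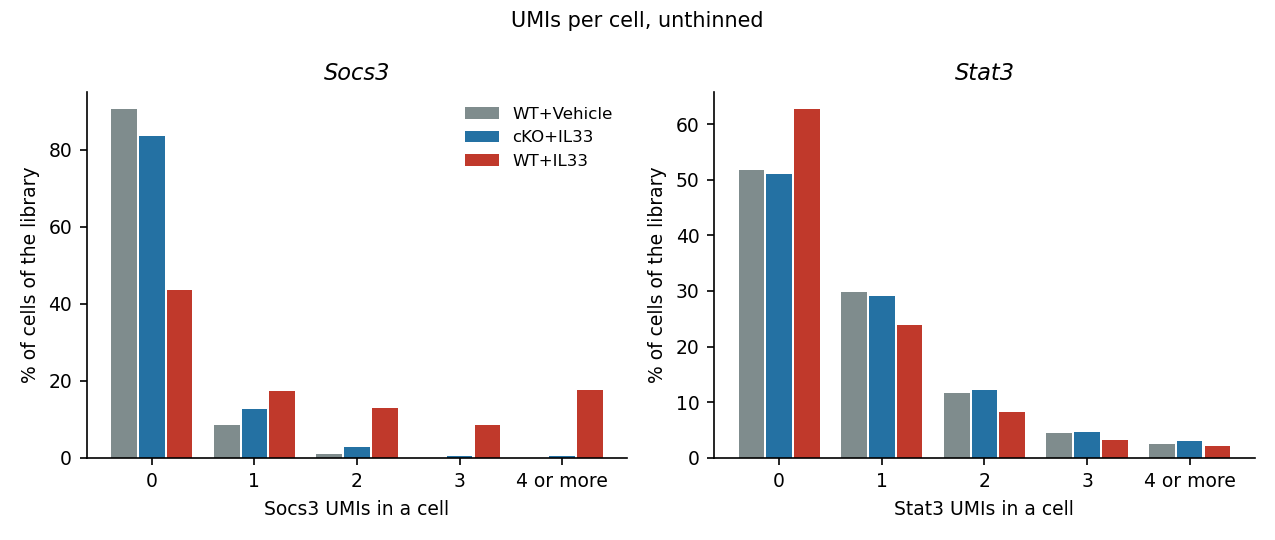
Share of cells of each library (y axis, in percent, from 0) by the number of Socs3 UMIs (left) or Stat3 UMIs (right) in the cell (x axis), without thinning. In WT+IL33, 17.5% of cells held 4 or more Socs3 UMIs, against 0.447% in cKO+IL33 and 0.0738% in WT+Vehicle, while 62.6%, 51.1% and 51.8% of cells held no Stat3 UMI in the same order.

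The deposited table splits the cells into 6 clusters, numbered 0 to 5, without cell type names. Which genes the clustering used is not stated in the sources, so the members may have shaped the clusters, and levels in them are descriptions. Cluster 1 held 1815 of the 2202 WT+IL33 cells, 35 cKO+IL33 cells and 20 WT+Vehicle cells, and it carried 93.4% of the Socs3 UMIs of WT+IL33. In WT+IL33 its cells stood at 344 CPM of Socs3, with a UMI in 61.8% of them. The 35 cKO+IL33 cells of cluster 1 held 18 Socs3 UMIs, which is 83.5 CPM, and the 20 WT+Vehicle cells held 4.

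Socs3 was also higher in WT+IL33 outside cluster 1. The 387 other cells of WT+IL33 had 254 Socs3 UMIs, or 153 CPM, which was 9.61-fold the level of the other cells of WT+Vehicle (8.08 to 11.4). In cluster 0 Socs3 was at 120 CPM in WT+IL33, 32.8 CPM in cKO+IL33 and 15.1 CPM in WT+Vehicle. In cluster 2 it was at 73.2, 36.2 and 18.02 CPM in the same order. In cluster 3 it was at 176, 33.8 and 15.6 CPM. The ratio of WT+IL33 to WT+Vehicle was 7.95 (5.77 to 10.9) in cluster 0, 4.06 (2.56 to 6.33) in cluster 2, 11.2 (7.49 to 16.8) in cluster 3 and 9.66 (5.84 to 16.8) in cluster 5. The WT+IL33 groups behind these ratios were small, from 59 cells in cluster 5 to 144 in cluster 0.

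The smaller difference between cKO+IL33 and WT+Vehicle was spread over the clusters. The ratio was 2.17 (1.75 to 2.70) in cluster 0, 2.01 (1.497 to 2.73) in cluster 2, 2.16 (1.51 to 3.1) in cluster 3 and 1.94 (1.06 to 3.52) in cluster 4. Cluster 5 was the exception, with 24.5 CPM in cKO+IL33 against 27.2 CPM in WT+Vehicle, a ratio of 0.899 (0.425 to 1.87) from 15 and 19 UMIs. The interval of cluster 5 held 1 and overlapped the intervals of clusters 0, 2, 3 and 4, but it ended below their ratios. Without cluster 1 the ratio was 2.08 (1.81 to 2.41). By the deposited cell-cycle call it was 2.07 (1.72 to 2.50) in G1 cells, 2.08 (1.59 to 2.73) in S cells and 2.43 (1.59 to 3.75) in G2M cells.

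**Figure D3:**
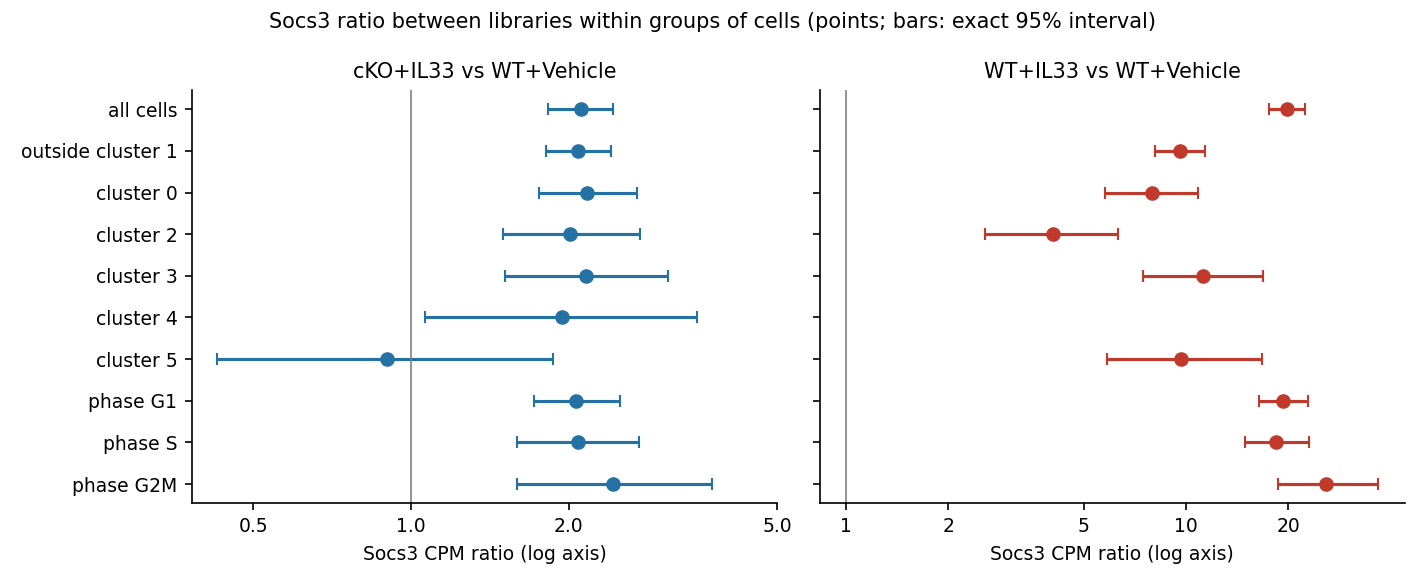
Ratio of Socs3 CPM between libraries (x axis, log axis) within groups of cells (y axis): cKO+IL33 to WT+Vehicle on the left, WT+IL33 to WT+Vehicle on the right; points are ratios, bars exact 95% intervals, and the grey line marks a ratio of 1. Outside cluster 5 the left-hand ratios lie between 1.94 and 2.43, and the right-hand ratios range from 4.06 in cluster 2 to 25.9 in G2M cells.

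The sex call moved with Socs3 inside WT+IL33. Among its cells, 802 were called female and had no Y-linked UMI, and 1095 were called male. The other 305 were called female but held Y-linked UMIs, and they are left out of the female-called cells here. Socs3 was at 177 CPM in the 802 female-called cells and 432 CPM in the 1095 male-called cells, 2.44-fold lower in the female-called cells (2.24 to 2.66). Within cluster 1 the levels were 196 CPM (180 to 212) in 595 female-called cells and 465 CPM (445 to 486) in 936 male-called cells. After thinning, 36.0% and 59.6% of those cells had a Socs3 UMI. The cells may come from as few as 1 mouse of each sex, so animal and sex cannot be told apart.

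The sex-matched ratios kept the order of the libraries. Against WT+Vehicle, male-called cells of WT+IL33 had 26.9-fold the Socs3 level. Against female-called cells of cKO+IL33, female-called cells of WT+IL33 had the higher level, with a log2 ratio of cKO+IL33 to WT+IL33 of -2.39 in place of -3.23. For cKO+IL33 against WT+Vehicle there was no sex-matched form, since 39 cells of the one were called male and 8 of the other female, so the 2.11-fold ratio of Socs3 cannot be told apart from a difference of sex, genotype or animal.

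Socs1, the inhibitor best known for interferon receptors, gave 200 UMIs in WT+IL33, 103 in cKO+IL33 and 116 in WT+Vehicle. Its level was 16.5 CPM (14.3 to 18.9) in WT+IL33, 5.89 CPM (4.81 to 7.15) in cKO+IL33 and 6.35 CPM (5.25 to 7.62) in WT+Vehicle. WT+IL33 was above both other libraries, and the intervals of those 2 overlapped. The ratio to WT+Vehicle was 2.60 (2.06 to 3.29), rank 630 of the 8814 measured genes. The level in cKO+IL33 was 2.80-fold lower than in WT+IL33 (2.20 to 3.59) and 0.928-fold that of WT+Vehicle (0.705 to 1.22). In this last comparison Socs1 was under 10 CPM in both libraries and is not among the measured genes. A Socs1 UMI was present in 7.58% of WT+IL33 cells, 3.42% of cKO+IL33 cells and 3.99% of WT+Vehicle cells, or 4.65%, 2.0% and 1.71% after thinning.

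By cluster, Socs1 differed from Socs3: its highest level was in cluster 5, a small cluster present in all 3 libraries. There it stood at 93.5 CPM (64.0 to 132) in WT+IL33, 34.3 CPM (21.2 to 52.4) in cKO+IL33 and 34.4 CPM (22.0 to 51.2) in WT+Vehicle, from 59, 86 and 88 cells. The other cells of the same libraries stood at 14.3, 4.86 and 5.24 CPM. Cluster 5 was thus 6.56-fold (4.35 to 9.62), 7.05-fold (4.15 to 11.5) and 6.57-fold (4.01 to 10.4) above the other cells of its own library, a similar multiple in each. It held 2.68% of the cells but 16.0% of the Socs1 UMIs of WT+IL33, 3.20% and 20.4% in cKO+IL33, and 3.25% and 20.7% in WT+Vehicle. A Socs1 UMI was present in 32.2%, 14.0% and 19.3% of cluster 5 cells, and after thinning in 16.1%, 10.5% and 12.8%.

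Other STAT and SOCS genes are given beside it. Stat2, which carries type I interferon signals, was 12.5-fold (9.85 to 15.9) higher in cluster 5 than in other cells in WT+IL33, 6.85-fold (5.40 to 8.61) in cKO+IL33 and 6.38-fold (5.01 to 8.07) in WT+Vehicle. Stat3 was at 1.01-fold, 1.05-fold and 1.12-fold, and Socs3 at 0.824-fold, 0.717-fold and 1.75-fold. The Socs3 interval excluded 1 in WT+Vehicle only (1.04 to 2.78, 19 UMIs in cluster 5). These genes may have shaped the clusters, so the differences describe the cluster.

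Within cluster 5 the Socs1 level of WT+IL33 was 2.72-fold that of WT+Vehicle (1.55 to 4.82), and cKO+IL33 was 0.997-fold (0.528 to 1.87). In cluster 1 of WT+IL33, Socs1 stood at 15 CPM with a UMI in 7.60% of cells. In cluster 0 it stood at 13.6 CPM in WT+IL33, from 7 UMIs, and at 5.24 and 4.92 CPM in cKO+IL33 and WT+Vehicle, and WT+IL33 was 2.76-fold WT+Vehicle (1.04 to 6.21). Cluster 2 and cluster 3 of WT+IL33 held 3 and 1 Socs1 UMIs, too few to show a difference. Within cluster 1 of WT+IL33, female-called cells stood at 11.0 CPM (7.62 to 15.4) and male-called cells at 19.6 CPM (15.5 to 24.3) of Socs1.

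**Figure D4:**
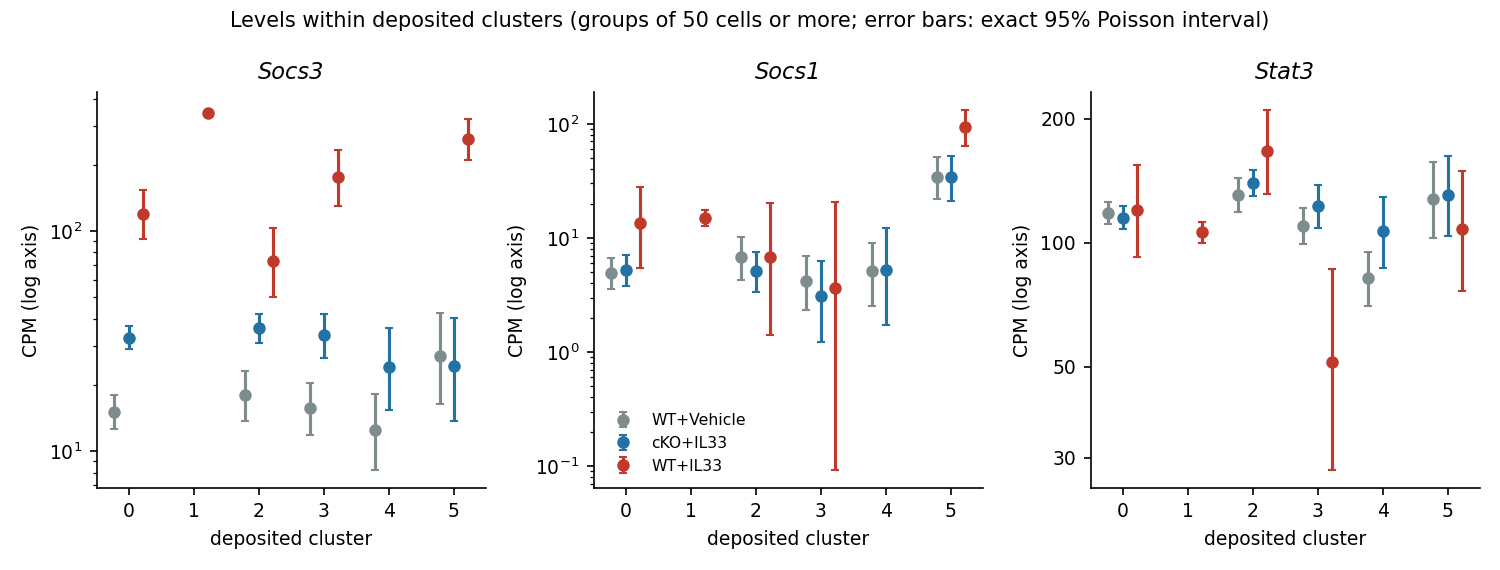
Socs3, Socs1 and Stat3 level (y axis, CPM, log axis) in each deposited cluster (x axis) of each library (colours), for the 15 groups of 50 cells or more; points are CPM and bars exact 95% Poisson intervals. Socs1 reached 93.5 CPM in cluster 5 of WT+IL33, Socs3 reached 344 CPM in cluster 1 of WT+IL33, and Stat3 ranged from 51.3 to 167 CPM.

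Cish, a STAT5 target whose protein competes with STAT5, was close to the limit of detection. It gave 40 UMIs in WT+IL33, 25 in cKO+IL33 and 20 in WT+Vehicle, in 37, 23 and 17 cells. Its level was 3.30 CPM (2.36 to 4.49), 1.43 CPM (0.926 to 2.11) and 1.09 CPM (0.669 to 1.69) in the same order, under 10 CPM in every library. The ratio of WT+IL33 to WT+Vehicle was 3.01 (1.72 to 5.44), and cKO+IL33 was 2.31-fold lower than WT+IL33 (1.37 to 3.97). Between cKO+IL33 and WT+Vehicle the ratio was 1.31 (0.697 to 2.48), an interval that holds 1. Of the 25 UMIs of cKO+IL33, 5 came from 3 of its 35 cells of cluster 1. Without cluster 1, cKO+IL33 and WT+Vehicle held 20 Cish UMIs each, a ratio of 1.05 (0.537 to 2.06).

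Stat3 differed little between the libraries. It gave 1303 UMIs in WT+IL33, 2169 in cKO+IL33 and 2095 in WT+Vehicle. Its level was 107 CPM (102 to 113), 124 CPM (119 to 129) and 115 CPM (109.8 to 119.7) in the same order, with WT+IL33 lowest and cKO+IL33 highest. The ratio of WT+IL33 to WT+Vehicle was 0.937 (0.874 to 1.005). cKO+IL33 was 1.15-fold WT+IL33 (1.08 to 1.24) and 1.08-fold WT+Vehicle (1.02 to 1.15), both small beside the 2-fold bound. A Stat3 UMI was present in 37.4% of WT+IL33 cells, 48.9% of cKO+IL33 cells and 48.2% of WT+Vehicle cells, and after thinning in 24.2%, 29.3% and 27.9%, so part of the gap in shares went with depth.

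Over the 15 groups of 50 cells or more, Stat3 ranged from 51.3 to 167 CPM. Both ends were WT+IL33 groups, cluster 3 with 14 UMIs and cluster 2 with 73. In cluster 3 the ratio of WT+IL33 to WT+Vehicle was 0.467 (0.253 to 0.794), and in clusters 0, 2 and 5 it was 1.02, 1.28 and 0.848, with intervals that held 1. Between cKO+IL33 and WT+Vehicle the ratios of clusters 0, 2, 3 and 5 lay between 0.974 and 1.12. In cluster 4 the ratio was 1.30 (1.01 to 1.67). The level of the transcript says nothing about phosphorylation of the protein, which was not measured.

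Within cells of 1 library, the members can be set against each other. In thinned cluster 1 cells of WT+IL33, a Socs3 UMI was present in 63.4% (58.3 to 68.3) of 372 cells with a Stat3 UMI and 48.3% (45.4 to 51.2) of 1193 cells without. Among male-called cells the shares were 71.1% (64.0 to 77.4) and 56.0% (51.8 to 60.0). Among female-called cells they were 40.8% (31.0 to 51.2) and 34.9% (30.3 to 39.7), intervals that overlap. In cluster 0 of cKO+IL33 the shares were 8.53% and 8.60%, and in cluster 0 of WT+Vehicle 4.43% and 4.53%, so no such gap was visible there. For Socs1 the Socs3 shares were 63.8% (51.3 to 75.0) of 69 cells with a Socs1 UMI and 51.3% (48.8 to 53.9) of 1496 without, again overlapping. Cells of 1 library are not replicates, and these shares are descriptions.

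Il12b, the gene of the shared subunit of IL-12 and IL-23, splits the cluster 1 cells of WT+IL33. Socs3 UMIs were present in 62.0% (58.3 to 65.7) of the 687 thinned cells with an Il12b UMI and 44.0% (40.6 to 47.3) of the 878 without. In male-called cells the shares were 65.7% (60.6 to 70.5) and 54.2% (49.2 to 59.1), and in female-called cells 51.8% (44.0 to 59.5) and 28.2% (23.4 to 33.3). Stat3 UMIs were present in 22.4% and 24.8% of all such cells with and without Il12b, and Socs1 UMIs in 4.95% and 3.99%. Before thinning, cells with Il12b had a median of 4896 UMIs and cells without 4201.5 UMIs.

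The genes closest to each member were found by Pearson r of log2(CPM + 1) over the 15 groups of 50 cells or more, among 10203 genes that reached 10 CPM in at least 1 group. These groups share libraries and depth, so r is a description. For Socs3 they were Sla, Cd14, Polr3d, Tlr1 and Fyb, all with r of 0.98. Cd14, the coreceptor for bacterial lipopolysaccharide, stood at 2111 CPM in WT+IL33, 288 in cKO+IL33 and 215 in WT+Vehicle. Tlr1, a receptor of bacterial lipopeptides, stood at 346, 33.9 and 26.7 CPM. For Socs1 they were A930037H05Rik with r of 0.94, Nampt, Mitd1, Enpp4 and Art3. For Stat3 they were Ndrg3 with r of 0.93, Bicra, N4bp2os, Gpatch2l and Jrkl. For Cish, which was under 10 CPM in all 15 groups, they were B4galt5 with r of 0.92, Grina, Gm17435 and Lpp. Among the members, r was 0.41 for Socs3 with Socs1, -0.24 for Socs3 with Stat3 and 0.20 for Socs1 with Stat3.

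Of the 8 SOCS genes, 6 were measured in WT+IL33 against WT+Vehicle, and 2 of them (Socs3 and Socs1) were at least 2-fold higher and 0 at least 2-fold lower, beside 11.7% and 10.4% of all measured genes. The list's median log2 ratio was 0.41, beside 0.05 over all measured genes. Socs1 and Socs5 were counted as measured only through WT+IL33, since both were under 10 CPM in WT+Vehicle. The levels of Socs4, Socs6 and Socs7 in WT+IL33 and WT+Vehicle gave ratios whose intervals held 1. Socs4 stood at 47.5, 46.2 and 45.7 CPM in WT+IL33, cKO+IL33 and WT+Vehicle, Socs6 at 37.4, 40.7 and 36.9 CPM, and Socs7 at 23.3, 18.4 and 19.9 CPM. Socs5 stood at 13.9, 13.2 and 9.20 CPM, which put WT+IL33 at 1.51-fold WT+Vehicle (1.21 to 1.88). Socs2, a feedback inhibitor of growth hormone signalling, stood at 6.27, 3.78 and 3.34 CPM, 1.88-fold (1.32 to 2.67).

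Neither the STAT factors nor the Janus kinases passed 2-fold in any of the 3 comparisons among measured genes. Of the 7 STAT genes, 6 were measured in WT+IL33 against WT+Vehicle, with a median log2 ratio of -0.03. Stat6, which carries IL-4 signals, was at 1.23-fold (1.12 to 1.34), Stat2 at 1.24-fold (1.08 to 1.43), Stat5a at 1.03-fold and Stat5b at 0.718-fold (0.609 to 0.844). Stat4 held 19, 7 and 9 UMIs, too few to be measured. Of the 4 kinases, Jak2 stood at 54.2, 30.5 and 27.8 CPM in WT+IL33, cKO+IL33 and WT+Vehicle, 1.95-fold WT+Vehicle (1.74 to 2.20). Tyk2 was 1.86-fold (1.67 to 2.07), Jak1 1.27-fold and Jak3 1.16-fold.

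The SOCS box ligase genes and most gp130, IL-10 family and interferon receptors stayed within 2-fold. All 5 ligase genes (Elob, Eloc, Cul5, Rnf7 and Ube2m) were measured and none passed 2-fold in any comparison. Of 11 gp130 and IL-10 family receptors, 7 were measured and none passed 2-fold in WT+IL33 against WT+Vehicle. Lifr, the receptor of leukaemia inhibitory factor, stood at 48.7, 156 and 75.5 CPM in WT+IL33, cKO+IL33 and WT+Vehicle. In cKO+IL33 against WT+Vehicle it was 2.06-fold higher (1.93 to 2.20). Il6ra, the IL-6 binding chain, stood at 194, 429 and 335 CPM. None of the 4 interferon receptor genes passed 2-fold, and Ifngr2 was the highest at 1.77-fold.

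Among 13 common chain receptor genes, 10 were measured, 2 at least 2-fold higher in WT+IL33 than in WT+Vehicle and 2 at least 2-fold lower, beside 11.7% and 10.4% of all measured genes. Il2rg, the common gamma chain, was 10.6-fold higher (8.59 to 13.2) and Il15ra 2.49-fold higher. Il2rg was measured only through WT+IL33, so it had to be higher there. Il7r was 4.21-fold lower (3.79 to 4.68) and Il21r 2.13-fold lower. Of the other JAK-STAT inhibitors, all 12 were measured, 3 at least 2-fold higher and 1 at least 2-fold lower, beside the same 11.7% and 10.4%. The higher ones were Ptpn1, a phosphatase that acts on Janus kinases, at 2.65-fold, Ptpn6, which encodes the phosphatase SHP-1, at 2.03-fold, and Usp18, an inhibitor of type I interferon signalling, at 2.09-fold. Usp18 was measured only through WT+IL33, so it too had to be higher there. Sh2b3, which encodes the adaptor LNK, was 2.12-fold lower.

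Of 24 ligands that signal through STATs, 23 were in the table and 7 measured, 3 at least 2-fold higher and 1 at least 2-fold lower in WT+IL33 than in WT+Vehicle, again beside 11.7% and 10.4% of all measured genes. Il6, Il12b and Il27 were measured only through WT+IL33 and Clcf1 only through WT+Vehicle. Il12b gave 15083, 1 and 2 UMIs in WT+IL33, cKO+IL33 and WT+Vehicle. Ebi3 and Il27, the subunits of IL-27, stood at 469, 39.4 and 39.2 CPM and at 11.2, 2.57 and 2.57 CPM. Clcf1, a gp130 ligand, was 2.42-fold lower (1.84 to 3.22).

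Genes known as STAT targets are read beside the 11.7% of all measured genes that were at least 2-fold higher. Of 20 genes listed as STAT3 responses, 16 were measured in WT+IL33 against WT+Vehicle, 12 at least 2-fold higher and 0 at least 2-fold lower, with a median log2 ratio of 1.57. Il1rn, the IL-1 receptor antagonist, gave 803, 3 and 2 UMIs in WT+IL33, cKO+IL33 and WT+Vehicle. Lcn2, the siderophore-binding lipocalin, gave 493, 0 and 0. With a floor of 3 counts in place of 0, WT+IL33 was 248-fold higher than WT+Vehicle, and the exact interval began at 201-fold. Fos was 39.9-fold higher and Bcl3 19.96-fold higher. These 4 genes were measured only through WT+IL33. Many genes of this list are also known targets of NF-kappaB or AP-1, so the list is not specific to STAT3.

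Of 10 genes listed as STAT5 responses, 5 were measured. Of these, 3 (Ccnd2, Bcl6 and Pim2) were measured only through WT+IL33, so they had to be higher there and their count is no support for a direction. Ccnd2 was 63.1-fold higher, Bcl6 9.04-fold, Pim1 5.48-fold and Pim2 3.34-fold. Of the listed genes known to be induced by interferons, those with the largest ratios were Gbp2 at 18.9-fold, Cxcl10 at 16.9-fold, Ifit1 at 3.23-fold and Isg15 at 2.96-fold, with Gbp2 and Ifit1 measured only through WT+IL33. In cKO+IL33 against WT+Vehicle, 0 of the 12 and 4 measured genes of the STAT3 and STAT5 response lists passed 2-fold. Beside the background of 0.447% higher in that comparison, Socs3, Lifr and Il15ra were the genes at least 2-fold higher over the 12 lists, and none was at least 2-fold lower.

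**Figure D5:**
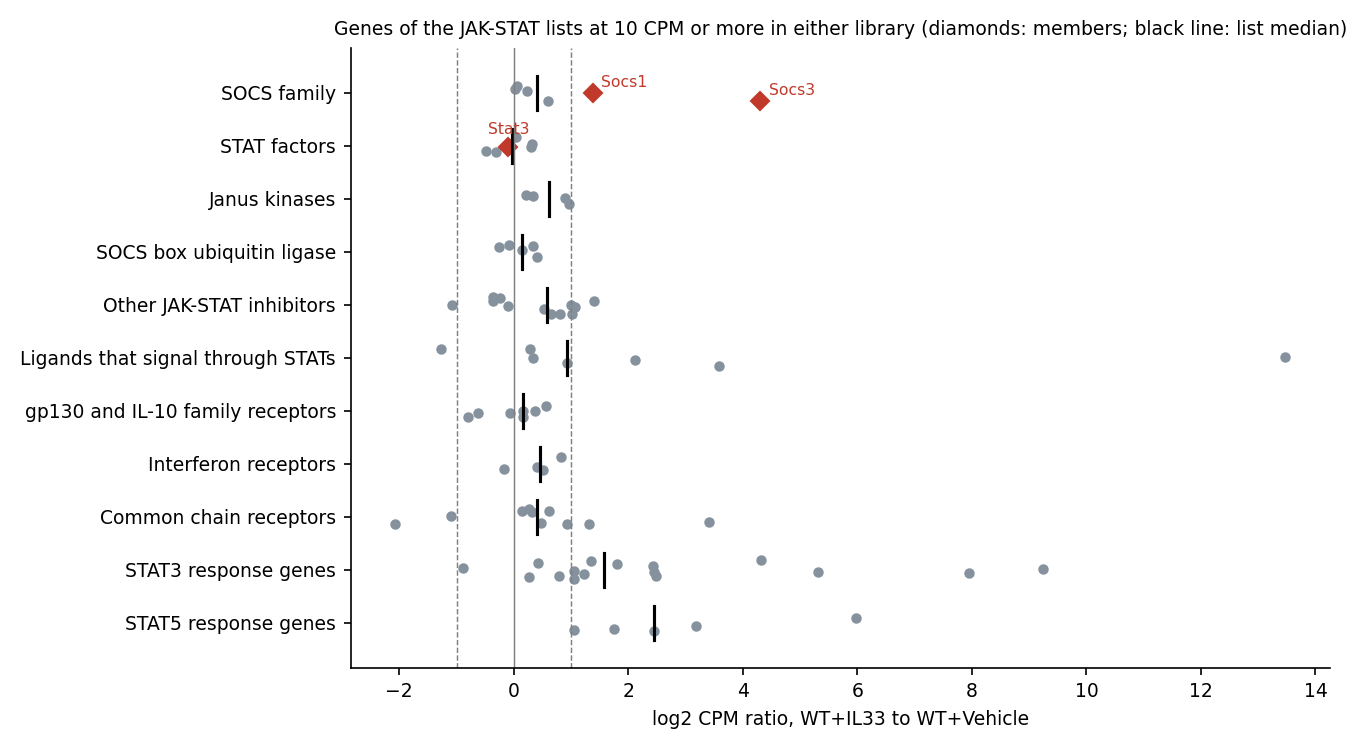
Log2 CPM ratio of WT+IL33 to WT+Vehicle (x axis) for the measured genes of JAK-STAT lists (y axis); dots are genes (with small vertical scatter for visibility), red diamonds Socs3, Socs1 and Stat3, black lines list medians, dashed lines 2-fold. Lcn2 is drawn at its ratio with the floor of 3 counts in WT+Vehicle, Stat3 lies near 0 among the STAT factors, and Socs3 lies at 4.31.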

How the data were processed

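Droplet single-cell RNA sequencing of 3 libraries was analysed from the deposited table of raw UMI counts per gene and cell, and from a deposited cell table that gives, per the file headers, library, sex call, cluster (resolution 0.4), cell-cycle phase and the percent of mitochondrial and ribosomal counts. Cell Ranger 5.0, Seurat 4.0.1 and GRCm38 are named in the submitters' processing notes, without roles. The authors' cell filter is not stated in the sources used; deposited cells held 2100 to 19987 UMIs. No doublet caller was run.

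Counts were summed over the cells of a library or cluster and divided by all UMIs of those cells (CPM). Intervals at 95% were exact Poisson for CPM, exact conditional binomial for ratios and exact binomial (Clopper-Pearson) for shares. Cells were thinned to 3000 UMIs, which left out 353, 86 and 77 cells of WT+IL33, cKO+IL33 and WT+Vehicle. Python 3.11.15, numpy 2.4.6, scipy 1.17.1 and pandas 2.3.3 were used, and the steps were tested on simulated data.

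The 4 genes, the 12 gene lists and the markers of 15 cell classes were chosen with earlier results of these data known. Named genes are the 4 members, the SOCS, STAT and JAK genes, up to 4 measured genes per other list with the largest log2 ratio of WT+IL33 to WT+Vehicle, the 5 genes closest to each member, and Il12b. Some results under this rule are left out of the text. Alternatives changed the scaling, the weight of cells, depth, phase, sex call, cells with markers of other leukocytes, and the minimum level.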

Additional observations from a re-analysis of the deposited data

How the results depend on the processing

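Of 92 alternative values of the 4 genes over the 3 comparisons, 77 stayed within the main counting interval, 15 moved out of it and 0 turned the sign of a difference whose interval excluded a ratio of 1. The alternative with cells outside cluster 1 was chosen after seeing the data. It gave log2 ratios of WT+IL33 to WT+Vehicle of 2.04 for Socs1, 3.26 for Socs3, 2.45 for Cish and 0.024 for Stat3 (-0.09 over all cells), and of cKO+IL33 to WT+IL33 of -2.12, -2.20, -2.38 and 0.078. Outside cluster 1, WT+IL33 held 43 Socs1 UMIs, 32 of them in cluster 5, and 10 Cish UMIs. Cluster 5 made up 59 of the 387 WT+IL33 cells outside cluster 1, against 88 of 2689 in WT+Vehicle. The mix of clusters thus differed between the libraries, and its part in these ratios was not tested. Male-called cells gave a log2 ratio of 4.75 for Socs3 in WT+IL33 against WT+Vehicle. Female-called cells gave -2.39 for Socs3 and 0.44 for Stat3 in cKO+IL33 against WT+IL33. Thinning gave Stat3 log2 ratios of -0.23 (WT+IL33 to WT+Vehicle) and 0.31 (cKO+IL33 to WT+IL33), and G1 cells -0.21 (WT+IL33 to WT+Vehicle) and 0.022 (cKO+IL33 to WT+Vehicle). The causes were not tested.

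The minimum level moved the counts of genes past 2-fold and also the number of genes counted over. At 10 CPM these were 8814, 8853 and 8495 genes for WT+IL33 against WT+Vehicle, cKO+IL33 against WT+IL33, and cKO+IL33 against WT+Vehicle. At 50 CPM they were 4104, 4151 and 3585 in the same order. With no minimum they were 15206, 15232 and 15857. At 50 CPM the genes higher and lower numbered 524 and 359 in WT+IL33 against WT+Vehicle, 417 and 474 in cKO+IL33 against WT+IL33, and 12 and 5 in cKO+IL33 against WT+Vehicle. With no minimum the genes higher and lower numbered 2139 and 2315, 2600 and 1783, and 1035 and 667. Median-of-ratios scaling moved log2 ratios by at most 0.074. Leaving out cells with markers of other leukocytes or of both sexes took away 663, 520 and 592 cells of WT+IL33, cKO+IL33 and WT+Vehicle, many for the B cell markers Cd79b and Ighm. No paired analysis was possible because each group has 1 library. Cish, with at most 3 UMIs in clusters 0, 2, 3 and 5 of WT+IL33, and Socs1, with 3 and 1 UMIs in its clusters 2 and 3, were too sparse to show differences there.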
